A study of Mus musculus with 10 samples.

Results

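The interleukin-1 (IL-1) family was described here in whole mouse kidney through 10 of its genes: the ligands Il1a, Il1b, Il1f6 (IL-36 alpha), Il18 and Il33, the antagonists and decoys Il1rn, Il18bp and Il1r2, and the receptors Il1r1 and Il1rl1. The members are the rows carrying those names in the authors' 3 tables of comparisons, and all 10 were found among 30431 rows. They were chosen by family membership and by their log2 fold changes and adjusted p-values in these same tables. Their fold changes and counts are therefore a description, and the deposited p-values of the 10 members are quoted as labels of the rows, not as a test of the family.

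Kidneys came from mice at postnatal day 21. WT were 4 wild-type animals. SM were 3 animals of genotype Pkhd1Cre; Pkd2 F/F, in which a Cre driver of the kidney tubules, chiefly the collecting duct, removes floxed Pkd2, the gene of polycystin-2 that is mutated in polycystic kidney disease. DM were 3 animals of genotype Pkhd1Cre; Pkd2 F/F; miR-21null, so SM and DM share the Pkd2 deletion and differ in the microRNA miR-21. The labels do not say whether the WT mice carried floxed alleles or Cre. The 3 comparisons ask what loss of Pkd2 changes in the kidney and what changes when miR-21 is missing too.

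IL-1 family cytokines start inflammation. IL-1 alpha and IL-1 beta bind the receptor of Il1r1, IL-36 cytokines that of Il1rl2, IL-18 that of Il18r1 and IL-33 that of Il1rl1, and each ligand-bound chain recruits a partner chain that passes the signal through MYD88 and IRAK kinases to NF-kappaB. The system carries its own brakes: the receptor antagonist of Il1rn blocks IL-1, the decoy receptor of Il1r2 captures it without signalling, and the binding protein of Il18bp captures IL-18. In kidney, these cytokines are known from injured tubules, resident macrophages and infiltrating leukocytes.

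The authors' deposited tables give, for every row, a log2 fold change, an average level in CPM (a gene's counts scaled to the total of a library) over the libraries, a likelihood ratio and its p-value. They give no value per library, so no spread over animals can be shown, and overlap between groups cannot be judged. The error quoted is the SE that the test implies, obtained as the size of the log2 fold change over the root of its likelihood ratio, and intervals cover 95% on that SE. These p-values refer the likelihood ratio to a chi-square distribution with 1 degree of freedom. They rest on the variation between kidneys in the authors' fit, which is not shown. Group levels in CPM were computed from the average and the fold changes and carry no error of their own. Rows with a deposited adjusted p below 0.05 over all rows are called higher or lower. The comparisons of SM and of DM with WT share the WT animals, so their values are given side by side. Because whole kidney was measured, fewer cells of a type and less RNA per cell cannot be told apart in any value below.

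Of the 10 members, 7 were higher and 0 lower in SM versus WT in the authors' deposited table, where 7.87% of all rows were called higher and 6.09% lower. The median log2 fold change of the 10 was 1.94, against 0.00 over all rows. In DM versus WT, 5 members were higher, the same genes without Il1a and Il1rl1, and 1, Il33, was lower, where 7.55% of all rows were called higher and 5.92% lower (median 1.73). Only Il18 and Il18bp were called in neither comparison. In DM versus SM edgeR's test in the authors' deposited table called 0 of the 10, where 0.0789% of all rows were called, 0.0559% higher and 0.0230% lower; at an unadjusted p below 0.05 there was 1 member, Il33, where 3.75% of all rows were. Since these contrasts were in view when the members were picked, nothing is read from these counts. With an F reference on 7 degrees of freedom in place of the deposited one, Il1a, Il1b and Il1rl1 lost their call in SM (adjusted p = 0.176, 0.12 and 0.153), and Il1b and Il33 in DM (adjusted p = 0.13 and 0.173), from the statistics in the authors' deposited tables.

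**Figure D1:**
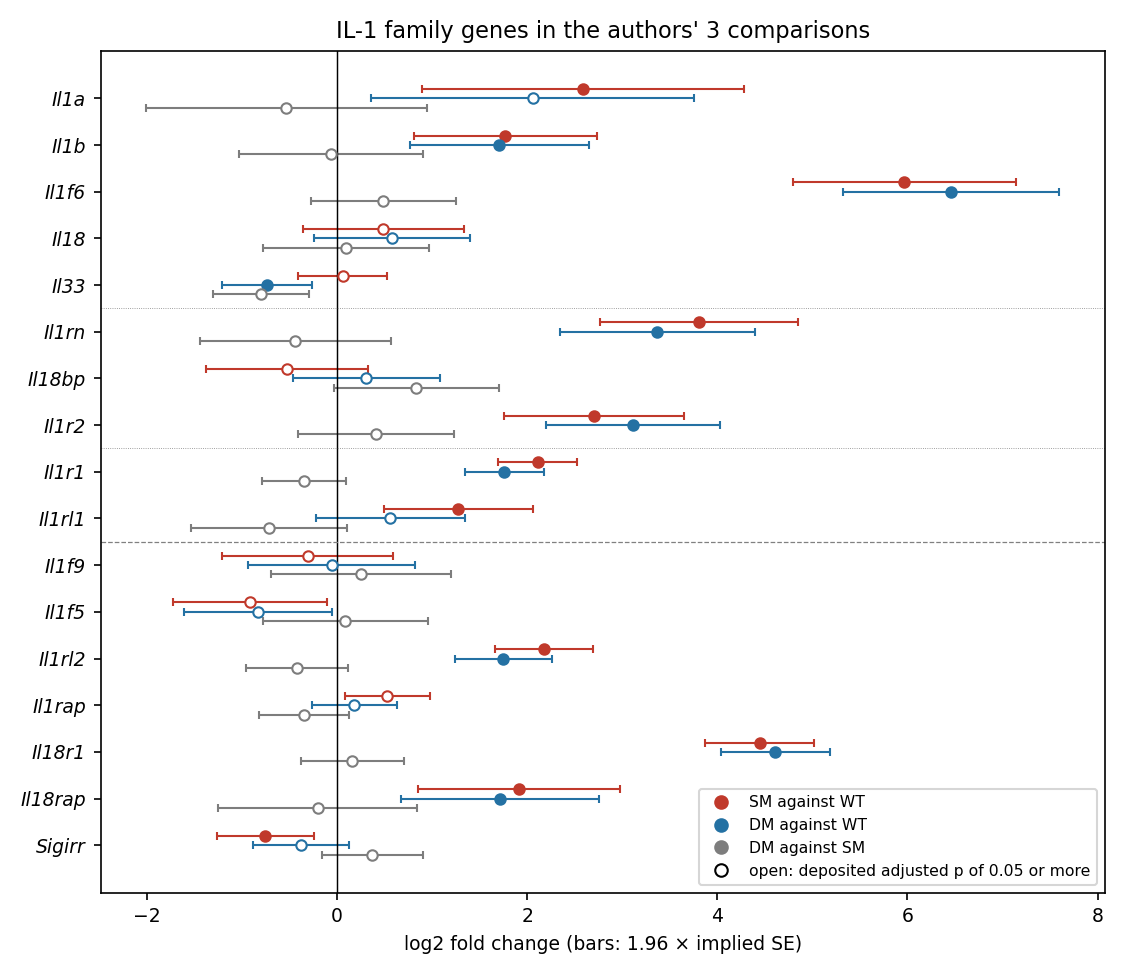
Log2 fold change (x axis) of the 10 members, above the dashed line, and of 7 other family genes, below it, in the authors' 3 comparisons; bars are 95% intervals from the SE, filled points have a deposited adjusted p below 0.05. Il1f6, at 5.97 and 6.46, and Il18r1, at 4.45 and 4.61, lie farthest to the right, and every DM versus SM point is open.

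Il1f6 had the largest fold change of the family. It encodes IL-36 alpha, a cytokine known from skin and mucosal epithelium that signals through the receptor of Il1rl2. Its computed level was 0.0273 CPM in WT, 1.71 CPM in SM and 2.39 CPM in DM. The log2 fold change was 5.97 (SE 0.60, adjusted p = 1.45e-20) in SM versus WT and 6.46 (SE 0.58, adjusted p = 1.94e-25) in DM versus WT, in the authors' deposited tables. The WT level lies under 0.0514 CPM, the lowest average of any row, where the small count added in a fit sets the ratio, so the fold is not a firm number. Measured against that lowest average in place of the WT level, Il1f6 stood 33.2-fold higher in SM and 46.6-fold higher in DM. DM versus SM gave 0.49 in the authors' deposited table, with an interval from -0.28 to 1.25.

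The receptor gene for this ligand, Il1rl2, is outside the 10 members and had its own rise. Its computed level was 5.73 CPM in WT, 25.8 CPM in SM and 19.3 CPM in DM. In the authors' deposited tables it stood at 2.17 (SE 0.26, adjusted p = 3.4e-14) in SM versus WT and 1.75 (SE 0.26, adjusted p = 2.48e-09) in DM versus WT. The other IL-36 genes were not called. Il1f9 (IL-36 gamma) was computed at 1.53 CPM in WT, 1.24 CPM in SM and 1.47 CPM in DM, with a log2 fold change of -0.31 (interval -1.21 to 0.59) in SM versus WT in the authors' deposited table. Il1f5, the IL-36 receptor antagonist, was at 0.932 CPM in WT, 0.494 CPM in SM and 0.525 CPM in DM, and its values of -0.92 (SE 0.41, adjusted p = 0.136) and -0.83 (SE 0.40, adjusted p = 0.175) missed the threshold in the authors' deposited tables. Il1f8 (IL-36 beta), with an average of 0.0565 CPM, and Il1f10 (IL-38), with 0.0797 CPM, were too close to the lowest level to be read.

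Of the classical ligands, Il1b encodes the IL-1 beta that caspase-1 releases from activated myeloid cells. It was computed at 0.394 CPM in WT, 1.34 CPM in SM and 1.29 CPM in DM. SM and DM both lay above WT: 1.77 (SE 0.49, adjusted p = 0.00445) and 1.71 (SE 0.48, adjusted p = 0.00549) versus WT, and -0.06 (interval -1.03 to 0.91) in DM versus SM, in the authors' deposited tables. Il1a, the alarmin IL-1 alpha that dying cells release, was computed at 0.047 CPM in WT, 0.283 CPM in SM and 0.196 CPM in DM. The authors' deposited table of SM versus WT gave Il1a 2.59 (SE 0.87, adjusted p = 0.0242), and that of DM versus WT gave 2.06 (SE 0.87, adjusted p = 0.102). The WT level of Il1a is also below the lowest average, and against that average SM stood 5.51-fold and DM 3.81-fold higher. The call in SM and its absence in DM do not show a difference, since DM versus SM was -0.53 (interval -2.01 to 0.94) in the authors' deposited table.

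The antagonist Il1rn had a larger fold change than Il1a or Il1b, the ligands it blocks. It was computed at 0.381 CPM in WT, 5.34 CPM in SM and 3.94 CPM in DM, so both groups with the Pkd2 deletion lay far above WT (14.0-fold and 10.3-fold). Its log2 fold changes were 3.81 (SE 0.53, adjusted p = 1e-10) and 3.37 (SE 0.52, adjusted p = 1.38e-08), per the authors' deposited tables. Il1r2, the decoy receptor, went from 0.151 CPM in WT to 0.987 CPM in SM and 1.31 CPM in DM. It stood at 2.71 (SE 0.48, adjusted p = 1.19e-06) and 3.11 (SE 0.47, adjusted p = 3.22e-09), per the authors' deposited tables. No test of the difference between 2 genes can be made from these tables, as the libraries are not given.

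Il1r1, the signalling IL-1 receptor, averaged 35.2 CPM and had the smallest SE of the 10 members. It was computed at 13.0 CPM in WT, 56.1 CPM in SM and 44.0 CPM in DM. The values versus WT were 2.11 (SE 0.21, adjusted p = 6.43e-20) in SM and 1.76 (SE 0.21, adjusted p = 5.11e-14) in DM, in the authors' deposited tables. Its partner chain Il1rap, which the IL-1, IL-33 and IL-36 receptors share, was not called. Il1rap was computed at 15.3 CPM in WT, 22.03 CPM in SM and 17.3 CPM in DM, and stood at 0.53 (interval 0.08 to 0.97, adjusted p = 0.111) and 0.18 (interval -0.27 to 0.63, adjusted p = 0.774) in the authors' deposited tables. Sigirr, an inhibitory receptor of the family, was lower in SM, at 34.6 CPM against 58.4 CPM in WT and 44.8 CPM in DM. The authors' deposited tables gave Sigirr -0.75 (SE 0.26, adjusted p = 0.0302) in SM and -0.38 (SE 0.26, adjusted p = 0.413) in DM versus WT, and 0.37 (interval -0.16 to 0.91) in DM versus SM.

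**Figure D2:**
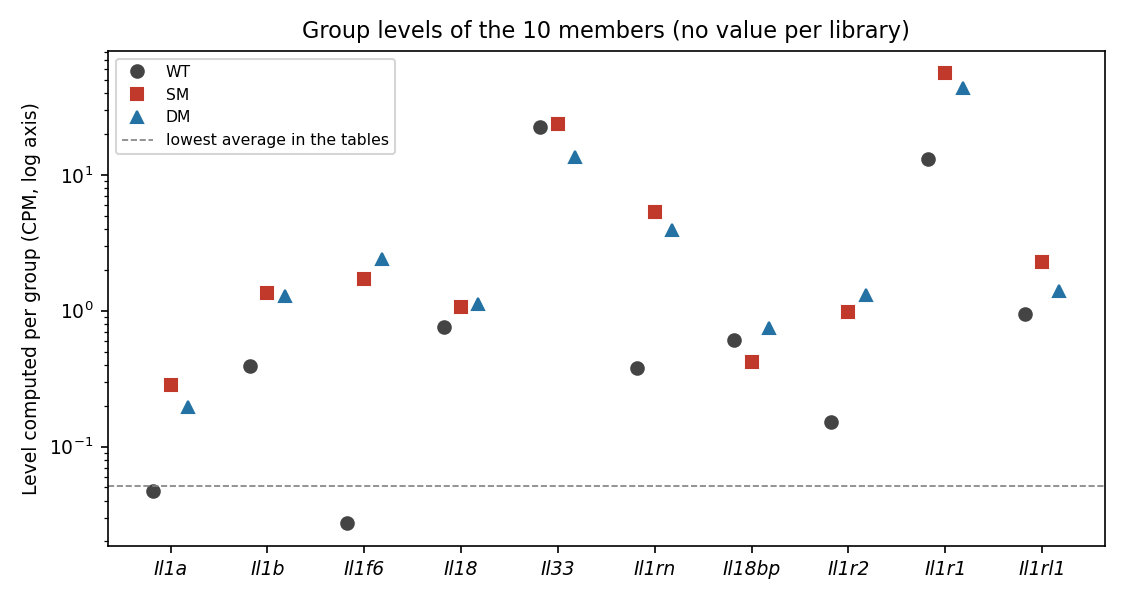
Level of each of the 10 members computed for WT, SM and DM, in CPM on a log axis; 1 point is 1 group, with no error because no library values are given, and the dashed line marks the lowest average of any row, 0.0514 CPM. SM and DM lie above WT for Il1a, Il1b, Il1f6, Il18, Il1rn, Il1r2, Il1r1 and Il1rl1, while DM is lowest for Il33. Il18 was called in neither comparison with WT, and Il1a and Il1rl1 in SM only.

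On the IL-18 side the receptor genes were called and the ligand was not. Il18 was computed at 0.754 CPM in WT, 1.06 CPM in SM and 1.13 CPM in DM. Its log2 fold changes of 0.49 (interval -0.36 to 1.33, adjusted p = 0.599) and 0.58 (interval -0.24 to 1.402, adjusted p = 0.47) in the authors' deposited tables missed the threshold. Il18bp was at 0.605 CPM in WT, 0.421 CPM in SM and 0.75 CPM in DM, with -0.52 (interval -1.37 to 0.33, adjusted p = 0.553) and 0.31 (interval -0.46 to 1.08, adjusted p = 0.778) in the authors' deposited tables. Its exons overlap those of Numa1 on the opposite strand, a gene with an average of 179 CPM and a log2 fold change of 0.29 (SE 0.24) in SM versus WT in the authors' deposited table. The sources used here do not state whether reads were counted by strand, so the value of Il18bp is uncertain. Il1b overlaps the antisense gene Il1bos and Il1a overlaps Gm14023 in the same way; the 2 antisense rows averaged 0.115 CPM and 0.888 CPM.

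Il18r1, the ligand-binding chain of the IL-18 receptor, is known from T and NK cells. It was computed at 1.51 CPM in WT, 32.9 CPM in SM and 36.8 CPM in DM. The rise was 21.8-fold in SM (log2 4.45, SE 0.29, adjusted p = 1.38e-48) and 24.4-fold in DM (log2 4.61, SE 0.29, adjusted p = 9.23e-52), per the authors' deposited tables. Il18rap, the partner chain, rose from 0.257 CPM in WT to 0.969 CPM in SM and 0.841 CPM in DM (1.92, SE 0.54, adjusted p = 0.00525, and 1.71, SE 0.53, adjusted p = 0.0138, per the authors' deposited tables). Markers of T and NK cells gave a different count: 2 of 13 measured were higher in SM and 6 in DM in the authors' deposited tables, and their summed level was 9.56 CPM in WT, 12.01 CPM in SM and 21.4 CPM in DM. The share of all rows called higher was 7.87% in SM and 7.55% in DM versus WT. Lck and Klrb1c were called higher in both comparisons, and Cd3g at 2.85 (SE 0.65), Cd8b1 at 4.67 (SE 0.97), Nkg7 at 3.38 (SE 0.92) and the granzyme gene Gzmb at 4.65 (SE 1.01) in DM, per the authors' deposited tables. In DM versus SM 0 of the 13 were called by edgeR in the authors' deposited table (5 at an unadjusted p below 0.05), where Gzmb had the lowest adjusted p of those 4 at 0.121. In that comparison 0.0789% of all rows were called and 3.75% had an unadjusted p below 0.05. The WT level of Cd8b1, 0.0505 CPM, lies just under the lowest average of any row. Cd3e was at 0.56 (adjusted p = 0.845) in SM and 1.81 (adjusted p = 0.116) in DM in the authors' deposited tables. The part of these cells in the values of Il18r1 and Il18rap was not tested.

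Il33 was the 1 member called lower, in DM. It encodes IL-33, a nuclear alarmin of endothelial, epithelial and stromal cells that signals to ILC2, mast cells and regulatory T cells. Its computed level was 22.6 CPM in WT, 23.5 CPM in SM and 13.5 CPM in DM. In the authors' deposited tables it stood at 0.06 (interval -0.41 to 0.52, adjusted p = 1) in SM versus WT and at -0.74 (SE 0.24, adjusted p = 0.0207) in DM versus WT. The direct comparison of DM with SM gave -0.80 (SE 0.26), with p = 0.00182 unadjusted and adjusted p = 0.474 over all rows in the authors' deposited table, so it did not pass. Versus WT, 6.09% of all rows were called lower in SM and 5.92% in DM, and 23.4% had an unadjusted p below 0.05 in SM. Of 12 endothelial markers, 0 were called in SM versus WT by edgeR (2 at an unadjusted p below 0.05), and in DM versus WT 4 were lower and 8 not called, in the authors' deposited tables. Emcn was at -0.95 (SE 0.23) and Egfl7 at 0.10 (SE 0.24) in DM versus WT in the authors' deposited table. Their summed level was 1498 CPM in WT, 1389 CPM in SM and 1120 CPM in DM, and their part in the value of Il33 was not tested.

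Il33 is also the 1 member with a miR-21 seed site in its 3′ UTR. Of the 21 family genes searched in GENCODE's longest annotated 3′ UTR, 2 hold the word ATAAGCT, as do 7.19% of the 3′ UTRs of 21028 genes. The other is Il1rapl1, a neuronal family receptor with an average of 0.12 CPM. The mature microRNA and the Il33 site, at chr19:29960323-29960329 on the plus strand of GRCm38, are printed 5′ to 3′ with the seed (bases 2 to 8) and its match in capitals. The microRNA's sequence is RefSeq's.
mmu-miR-21a-5p: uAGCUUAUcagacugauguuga
Il33 site: ctacatttttATAAGCTtaaaacttac
The site pairs with the seed and is not followed by an A. DM versus SM, the comparison that differs in miR-21, did not pass for Il33, as given above. A seed match is a description of letters and not evidence of binding.

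Il1rl1, the IL-33 receptor ST2, was computed at 0.945 CPM in WT, 2.29 CPM in SM and 1.39 CPM in DM. The authors' deposited tables gave it 1.28 (SE 0.40, adjusted p = 0.014) in SM and 0.56 (SE 0.40, adjusted p = 0.457) in DM versus WT. DM versus SM was -0.72 (interval -1.54 to 0.11, adjusted p = 1) in the authors' deposited table, so SM and DM are not shown to differ. Among all rows, 7.87% were called higher and 6.09% lower in SM versus WT, and 7.55% and 5.92% in DM versus WT. Of 14 markers of mast cells, basophils and ILC2, 2 were higher and 1 lower in SM and 2 higher in DM in the authors' deposited tables. The summed level was 93.2 CPM in WT, 149 CPM in SM and 121.6 CPM in DM, but Kit, Gata3 and Rora, which other kidney cells also express, made up nearly all of it: Gata3 alone went from 35.1 CPM in WT to 70.4 CPM in SM. The 2 called higher in DM were Il7r and Areg. Il7r was computed at 0.403 CPM in WT, 1.27 CPM in SM and 1.21 CPM in DM. Areg was computed at 0.0955 CPM in WT, 0.343 CPM in SM and 0.434 CPM in DM. The mast cell protease Tpsb2 was the 1 called lower in SM, at 0.493 CPM in WT and 0.0647 CPM in SM (-2.93, SE 0.84, adjusted p = 0.00643, per the authors' deposited table). Cpa3 and Mcpt4, also mast cell proteases, were at -1.75 (adjusted p = 0.0621) and -1.88 (adjusted p = 0.203) in SM in the authors' deposited table. Il13, Mcpt8, Tpsab1 and Fcer1a averaged 0.0539 to 0.0566 CPM, next to the lowest average.

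Levels were also divided by the joined length of all annotated exons of a gene. That is only a rough scale between genes, since the length of the transcripts present is not known. Per kilobase of annotated exon, Il33 was the most abundant of the 5 ligand members in every group, at 7.84 CPM per kb in WT, 8.15 in SM and 4.69 in DM. In WT Il18 followed at 0.731 CPM per kb, then Il1b at 0.206, Il1f6 at 0.0309 and Il1a at 0.0238. In SM Il1f6 took the second place at 1.93 CPM per kb, before Il18 at 1.02, Il1b at 0.705 and Il1a at 0.143. DM had the order of SM, with Il1f6 at 2.71 CPM per kb, Il18 at 1.09, Il1b at 0.675 and Il1a at 0.0991. The antagonist Il1rn went from 0.0688 CPM per kb in WT, below Il1b, to 0.964 in SM and 0.711 in DM, above it. Parts of the order depend on the length used. In CPM, Il1b was above Il18 in SM (1.34 and 1.06) and in DM (1.29 and 1.13). Il1a was above Il1f6 in WT (0.047 and 0.0273 CPM). Without library values the spread of these levels is unknown, and neighbours in an order cannot be told apart.

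Position in the genome was not used to choose the members, and it groups them. On GRCm38 chromosome 1, from 40074079 to 40551705, lie 6 receptor genes on the plus strand in the order Il1r2, Il1r1, Il1rl2, Il1rl1, Il18r1 and Il18rap, and Il1rl1 ends 136 bases before Il18r1 starts. All 6 were called higher in SM versus WT and 5, without Il1rl1, in DM versus WT, in the authors' deposited tables. Of all rows, 7.87% and 7.55% were called higher in these comparisons. Of the 6 genes, 3 are members, chosen on these values, and 3 are not, so nothing is read from the count. With the F reference or with Bonferroni adjustment 4 of the 6 were called in each comparison; Il18rap lost its call in both (adjusted p = 0.124 and 0.157 with F) and Il1rl1 in SM. Among the 5 other protein-coding genes with at least 1 CPM within 500 kb, 1 was higher and 1 lower in either comparison in the authors' deposited tables. These were the sodium-proton exchangers next to Il18rap: Slc9a4 at 2.39 (SE 0.31) and Slc9a2 at -0.78 (SE 0.20) in SM versus WT in the authors' deposited table. Map4k4, on the other side of Il1r2, stood at 0.58 (SE 0.27, adjusted p = 0.16) there, per the authors' deposited table.

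The ligand genes were not alike in this way. From 24153161 to 24351494 on chromosome 2 lie Il1f8, Il1f9, Il1f6, Il1f5, Il1f10 and Il1rn, and 2 of these 6, Il1f6 and Il1rn, were called higher in both comparisons with WT in the authors' deposited tables. The share of all rows called higher was 7.87% in SM and 7.55% in DM. Il1f9 and Il1f5, the genes on either side of Il1f6, had negative values that missed the threshold, as given above. Beyond Il1rn, Psd4 was called higher at 1.49 (SE 0.39), and the kidney transcription factor gene Pax8 at 0.37 (SE 0.23) in SM versus WT in the authors' deposited table. Il1a and Il1b lie apart on the same chromosome, at 129299610 to 129309972 and 129364570 to 129371139, both on the minus strand. Of 12 other protein-coding genes with at least 1 CPM within 500 kb of that pair, 1 was higher in SM and 0 in DM in the authors' deposited tables of edgeR's test versus WT; the 1 was Ckap2l, a mitotic spindle gene (1.799, SE 0.60). The remaining members lie on other chromosomes: Il18 on 9 (50554827 to 50581840), Il33 on 19 (29925114 to 29960718) and Il18bp on 7 (102014885 to 102018690).

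**Figure D3:**
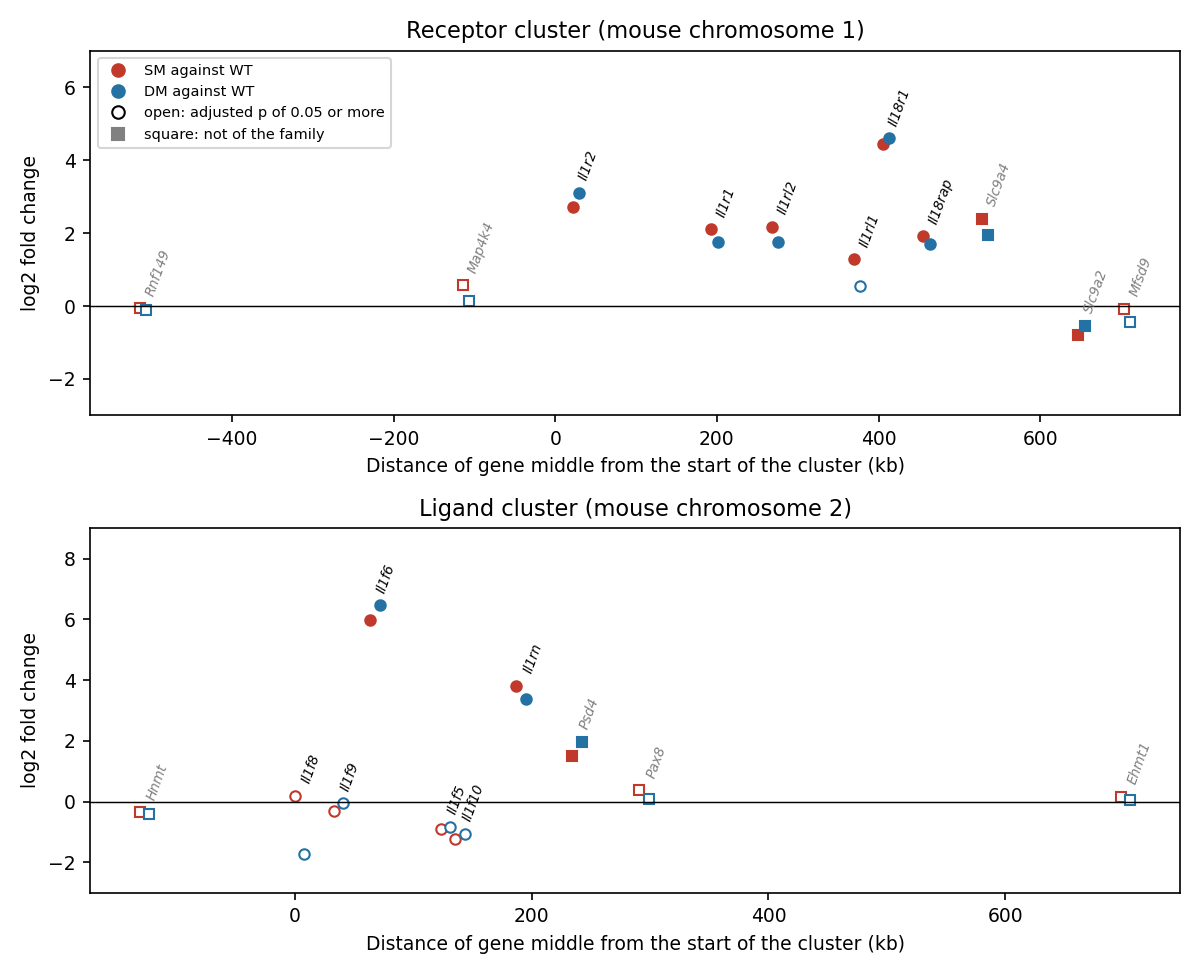
Log2 fold change (y axis) of the family genes (circles) and of other protein-coding genes with at least 1 CPM (squares) against distance in kb from the start of the receptor cluster on chromosome 1 and the ligand cluster on chromosome 2; filled points have a deposited adjusted p below 0.05. All 6 receptor genes lie above 0. In the ligand cluster only Il1f6, Il1rn and, beyond Il1rn, Psd4 (1.49 in SM and 1.97 in DM) were called higher.

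Promoter windows of 300 bases, 250 before to 50 after a start, were read from RefSeq's table on GRCm38.p6, and 19 of the 21 family genes had 27 windows; Il1f6 and Sigirr had none. The motifs were searched on both strands. The STAT word TTCNNNGAA was in 4 windows of 27 and in 8.30% of 32851 windows of all genes, and the AP-1 word TGANTCA in 3 and in 7.81%. The short C/EBP word TTNNGNAA was in 16 and in 40.7%. The NF-kappaB word, GGGA and TTCC with 2 free bases between them, and its stricter form, whose second free base is T, were in 0 family windows and in 1.47% and 0.411% of all windows. Windows of 1 gene can overlap, and a match is a description, not a binding site. A window of Il18r1 at a start inside the gene (chr1:40465756-40466055, plus strand) is shown because that gene has the largest receptor change and holds the STAT word at 2 places, in capitals. The other windows of Il18r1 hold no STAT word.
Il18r1 window: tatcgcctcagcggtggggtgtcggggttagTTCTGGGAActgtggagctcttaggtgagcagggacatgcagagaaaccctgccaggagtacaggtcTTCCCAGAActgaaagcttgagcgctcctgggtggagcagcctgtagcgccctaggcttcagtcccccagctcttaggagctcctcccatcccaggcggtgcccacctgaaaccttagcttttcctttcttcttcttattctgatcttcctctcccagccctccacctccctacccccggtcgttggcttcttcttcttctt
Genes that were not called hold these words too: Il1f9 and Il1f5 the STAT word and Il1f8 the AP-1 word. The STAT word of Il1r2 (chr1:40085982-40085990) and the AP-1 words of Il1rn (chr2:24336719-24336725) and Il1a (chr2:129309978-129309984, minus strand) are printed with 10 bases on either side, as the matches of called members.
Il1r2 STAT: cgggtgctttTTCAAGGAActtccgacta
Il1rn AP-1: tctgctagacTGAGTCAcgcctctgga
Il1a AP-1: cagagaagccTGACTCAgacttaagtc

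The rest of the pathway was read from lists written by role. Of all rows, 7.87% were called higher and 6.09% lower in SM versus WT, and 7.55% and 5.92% in DM versus WT. Of 20 genes that process IL-1 cytokines or build inflammasomes, the caspase-1 platforms, 8 were higher and 0 lower in SM versus WT and 10 and 0 in DM versus WT in the authors' deposited tables (medians 0.82 and 0.91, against 0.00 over all rows). The inflammasome sensors Nlrp1b and Nlrp3 stood at 2.86 (SE 0.54) and 1.93 (SE 0.44) in SM, and at 3.45 (SE 0.53) and 2.16 (SE 0.44) in DM, in the authors' deposited tables. Ctss, a lysosomal protease of antigen-presenting cells, stood at 2.57 (SE 0.32) and 2.72 (SE 0.32) in the same authors' deposited tables. Casp1 itself was at 1.27 (adjusted p = 0.0874) in SM and 1.98 (SE 0.51, adjusted p = 0.00185) in DM in the authors' deposited tables, and the adaptor Pycard was not called in either. DM versus SM had 0 called of the 20 by edgeR in the authors' deposited table, and 1 at an unadjusted p below 0.05, where 3.75% of all rows were. With the F reference the calls fell to 1 in SM, Ctss, and 2 in DM, Ctss and Nlrp1b, so those of Nlrp3 (adjusted p = 0.0777 and 0.066), of Nlrp1b in SM (adjusted p = 0.0504) and of Casp1 in DM (adjusted p = 0.108) ended.

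Receptor signalling genes were mostly not called, and all 28 averaged at least 1 CPM. Among the 15135 rows at that level, 1840 were called higher and 1433 lower in SM versus WT. In DM versus WT these were 1711 and 1291. Of 28, 6 were higher and 1 lower in SM versus WT, and 5 higher and 0 lower in DM versus WT, in the authors' deposited tables (medians 0.10 and 0.05). Those called higher include NF-kappaB subunits and feedback genes: Relb at 1.27 (SE 0.30), Nfkbiz at 1.23 (SE 0.23) and Tnfaip3, the brake A20, at 1.04 (SE 0.31) in SM in the authors' deposited table. In DM the leading 3 were Relb at 1.42 (SE 0.30), Nfkbiz at 1.37 (SE 0.23) and Nfkb2 at 1.08 (SE 0.21) in the authors' deposited table. Chuk, the kinase IKK alpha, was the 1 lower in SM, at -0.65 in the authors' deposited table (SE 0.24, adjusted p = 0.0445). Traf6, Irak1 and Map3k7, which carry the signal from the receptor, were called in neither of the authors' deposited tables versus WT. Other genes of that step were called higher by edgeR in 1 comparison. Irak4 was at 0.79 (adjusted p = 0.00569) and Irak3 at 0.93 (adjusted p = 0.0404) in SM in the authors' deposited table. Myd88 was at 0.66 (adjusted p = 0.0189) in DM in the authors' deposited table. In DM versus SM 0 of 28 were called by edgeR in the authors' deposited table, with 0 at an unadjusted p below 0.05, where 3.75% of all rows were. With the F reference 1 call, Nfkbiz, was left in each comparison with WT.

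Among 29 genes known to respond to IL-1, 18 were higher and 0 lower in SM versus WT, and 20 higher and 1 lower in DM versus WT, in the authors' deposited tables (medians 2.09 and 2.50). Many of them also respond to other cytokines. Lcn2, the iron-binding protein NGAL, Lif, a cytokine of the IL-6 family, and the neutrophil chemokine Cxcl2 had the largest fold changes among called rows of at least 1 CPM in SM, at 5.77 (SE 0.34), 5.08 (SE 0.44) and 4.93 (SE 0.72) in the authors' deposited table. Lcn2 at 5.42 (SE 0.33), the monocyte chemokine Ccl7 at 5.20 (SE 0.65) and Lif at 5.06 (SE 0.44) did so in DM in the authors' deposited table. Of called rows under 1 CPM on average, Cxcl5 stood at 5.84 (SE 0.98) in SM and Ccl20 at 5.06 (SE 0.66) in DM in the authors' deposited tables. Their WT levels, 0.0185 CPM for Cxcl5 and 0.0446 CPM for Ccl20, lie under the lowest average. Il6, also under 1 CPM, stood above all of these at 6.01 (SE 0.90) in SM and 5.80 (SE 0.90) in DM in the authors' deposited tables, from a WT level of 0.0122 CPM, under the lowest average. Mmp9, a matrix protease, was lower in DM, at -1.78 (SE 0.56) in the authors' deposited table, and Ptgs2 and Nos2 were called in neither comparison. DM versus SM had 0 of 29 called by edgeR in the authors' deposited table, and 4 at an unadjusted p below 0.05, where 3.75% of all rows were.

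**Figure D4:**
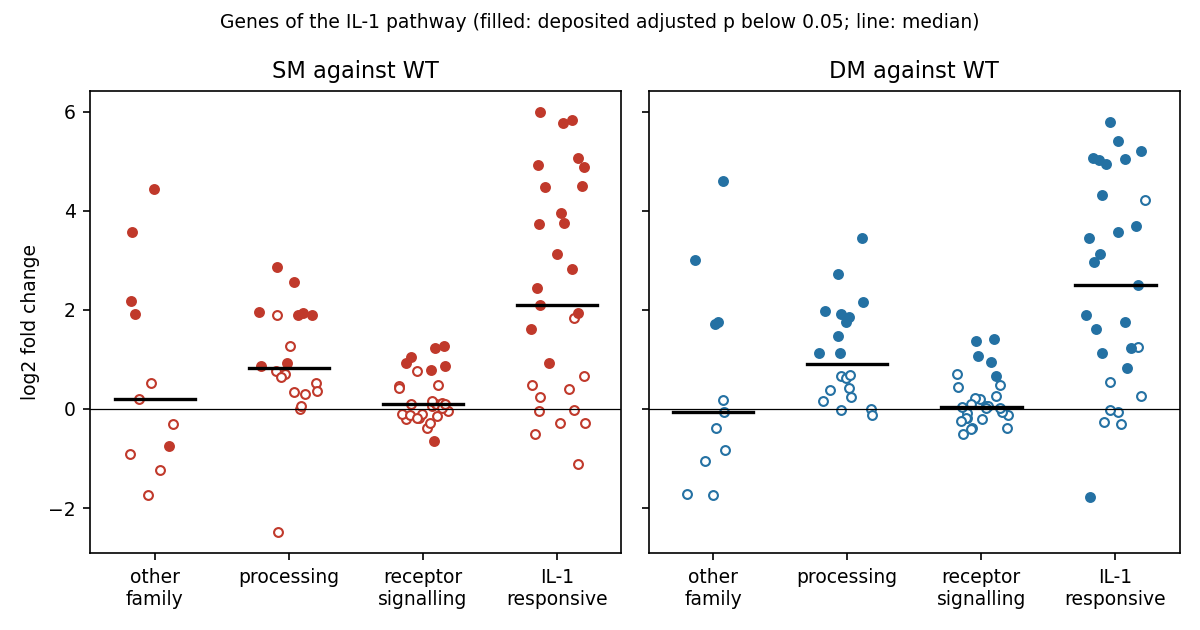
Log2 fold change (y axis) of every measured gene of 4 pathway lists in SM versus WT and DM versus WT; each point is a gene, filled where the deposited adjusted p is below 0.05, and the line is the list's median. Receptor signalling genes lie near 0 (medians 0.10 and 0.05), and IL-1 responsive genes have the highest medians (2.09 and 2.50).

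Markers of other cells were read beside these genes. Among all rows, 7.87% were called higher and 6.09% lower in SM versus WT, and 7.55% and 5.92% in DM versus WT. Macrophage markers were higher for 13 of 14 in SM and 12 of 14 in DM in the authors' deposited tables, with a summed level of 172 CPM in WT, 580 CPM in SM and 575 CPM in DM, beside Il1b and Il1rn, which were called higher in both groups. Neutrophil markers, beside Il1r2, which neutrophils carry, were higher for 3 of 11 in SM and for 1, with 1 lower, in DM in the authors' deposited tables; the summed level was 8.06 CPM in WT, 14.9 CPM in SM and 11.1 CPM in DM, and Mpo and Elane averaged 0.0692 and 0.0618 CPM. Markers of keratinising and urothelial epithelium, beside Il1f6, were higher for 8 of 14 in SM and 7 in DM in the authors' deposited tables (summed 326.6, 782 and 609 CPM in WT, SM and DM), with Krt17 at 6.51 (SE 0.68) in SM in the authors' deposited table and Krt6a next to the lowest average. Krt7 made up most of that sum, at 222 CPM in WT, 439 CPM in SM and 361 CPM in DM. The WT level of Krt17, 0.0411 CPM, lies under the lowest average, so its fold is not firm. Fibroblast and mural cell markers, beside Il1r1, were higher for 8 of 12 in SM and 7 in DM in the authors' deposited tables (summed 1327, 4546 and 3555 CPM). Col3a1, the largest part of that sum, went from 303 CPM in WT to 1255 CPM in SM and 1136 CPM in DM. Pdgfra was at 109, 126 and 93.2 CPM and Pdgfrb at 117, 139 and 100 CPM in the same groups. The part of these cells in the members' values was not tested. Hepatocyte markers were lower for 9 of 12 in SM and 8 in DM versus WT in the authors' deposited tables, with Alb at -8.66 (SE 1.49) in SM. Serpina1a was the 1 called higher, in DM (1.22, SE 0.38, adjusted p = 0.0149), and Trf and Fgb were called in neither of the authors' deposited tables versus WT. The part of these genes' source in the WT levels was not tested. The labelled tissue showed its collecting duct markers, with Aqp2 at an average of 262 CPM. Of 12 markers of principal and intercalated cells, 4 were higher and 3 lower in SM and 2 higher and 4 lower in DM versus WT in the authors' deposited tables. Aqp4 of principal cells was at 1.73 (SE 0.22) and the intercalated cell genes Slc4a1, Atp4a and Atp6v1g3 at -2.10 (SE 0.20), -1.79 (SE 0.27) and -1.06 (SE 0.20) in SM in the authors' deposited table, and their part in the members' values was not tested. Pkd2 stood at -0.41 (SE 0.20, adjusted p = 0.179) in SM and -0.49 (SE 0.20, adjusted p = 0.0838) in DM versus WT in the authors' deposited tables, over the whole gene and all cells, and the miR-21 row was at the lowest average and checks nothing.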

How the data were processed

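Total RNA of whole kidneys from 10 mice was sequenced from stranded libraries, per the labels' protocols, and groups were taken from the sample titles (4 WT, 3 SM, 3 DM). The submitters' processing notes list the build mm10 and, with no role for each, edgeR 3.2.4, featureCounts, Subread 1.4.6, Cufflinks, TopHat2 2.0.12 and bcl2fastq 1.8.4. The authors deposited 3 tables of 30431 rows, 23276 of them with a gene name. Per the file headers each deposited row holds the log2 fold change and average log2 CPM, then a likelihood ratio score with its p-value and false discovery rate. Checked on the files, the averages are identical in the 3 tables, the fold changes subtract, and the adjusted p-value is Benjamini-Hochberg over all rows. Low rows were therefore not filtered out, and 3888 rows share the lowest average. The sources used here give neither library depth nor values per library, so no counting interval, per-sample value or test over samples is given. Replicates are separately numbered samples, 1 number each.

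Group levels, implied SE and intervals were computed with Python 3.11.15, numpy 2.4.6 and scipy 1.17.1. The code for the implied SE and adjusted p-values was tested on simulated rows of at least 1 CPM. That test covered neither lower rows nor the group levels. Positions and 3′ UTRs came from GENCODE mouse release 21 on GRCm38, which mm10 names, and promoters and the microRNA from RefSeq on GRCm38.p6. Named genes are all family genes, up to 3 per pathway or cell type list, direction and comparison among called rows of at least 1 CPM, the neighbours in each cluster, and genes whose lack of a call is stated. Neighbours, Casp1, Pycard, Traf6, Irak1, Map3k7, Ptgs2, Nos2, Il6, Cxcl5, Ccl20, Cd3e, Cd3g, Cd8b1, Nkg7, Gzmb, Klrb1c, Cpa3, Mcpt4, Tpsb2, Kit, Gata3, Rora, Egfl7, Trf, Fgb, the overlapping genes and the markers near the lowest average were named after their values were seen. So were Krt7, Pdgfra, Pdgfrb, Myd88, Irak3, Irak4, Il7r and Areg. The members and lists were chosen with earlier results of these data known. Alternatives were a threshold of 0.01, adjustment over the 15135 rows of at least 1 CPM, an F distribution with 1 and 7 degrees of freedom as reference, Bonferroni adjustment, and centring on the median.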

Additional observations from a re-analysis of the deposited data

How the results depend on the processing

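No paired analysis was possible because the samples share no replicate numbers and the tables hold no libraries, and leaving out each replicate was not run for the same reason. All alternatives use the authors' deposited values. Centring moved values by at most 0.01 on the log2 scale and turned no direction. For the members in SM against WT, the 7 called became 4 when p-values were adjusted over rows of at least 1 CPM only (5 members fall under 1 CPM), 4 with the F reference and 4 with Bonferroni; Il1a, Il1b and Il1rl1 lost their call under the F reference (adjusted p = 0.176, 0.12 and 0.153). Il1b in DM against WT lost its call with the F reference (adjusted p = 0.13) and with Bonferroni (adjusted p = 1). Il33 in DM against WT lost its call at 0.01, with the F reference (adjusted p = 0.173) and with Bonferroni (adjusted p = 1). Other family genes in SM against WT went from 5 called to 3 by the filter, 2 by F and 2 by Bonferroni, and in DM against WT from 4 to 2 under each of the threshold of 0.01, the filter, F and Bonferroni. Processing genes in SM went from 8 to 5 by the filter, 1 by F and 2 by Bonferroni, and in DM from 10 to 2 by F and 4 by Bonferroni. Signalling genes in SM went from 7 to 1 by F and 1 by Bonferroni, and in DM from 5 to 3 at 0.01, 1 by F and 2 by Bonferroni. IL-1 responsive genes in SM went from 18 to 11 by the filter, and in DM from 21 to 11 by F. Over all rows, SM against WT went from 4248 to 2775 at 0.01, 682 by F and 970 by Bonferroni, and DM against WT from 4100 to 2596, 451 and 855; DM against SM went from 24 to 7, 0 by F and 6, and to 13 by the filter. These reductions follow from stricter references and fewer rows tested. Rows near the lowest average, such as Il1a, have the least certain fold.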

Other observations

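Set beside 14036 other named rows of at least 1 CPM, the 5 genes whose pair of fold changes against WT lay closest to that of Il1f6, by Euclidean distance over those 2 values, were Krt17, Arhgap36, Lcn2, Tnfsf8 and Elavl4. Krt17, a keratin of stressed and injured epithelium, had a distance of 0.60, with 6.51 in SM and 6.21 in DM in the authors' deposited tables. Lcn2, the injury marker, had a distance of 1.06, with 5.77 and 5.42 in the authors' deposited tables. Tnfsf8, the CD30 ligand, stood at 5.84 and 5.33 and Arhgap36 at 5.21 and 5.73 in the authors' deposited tables. Elavl4, a neuronal RNA-binding protein gene, stood at 7.11 and 6.81 in the authors' deposited tables. Il1f6 was chosen on these fold changes, and its own are not firm, since its WT level of 0.0273 CPM lies under the lowest average of 0.0514 CPM. The WT level of Krt17, 0.0411 CPM, lies under that average too, so its fold changes are not firm either. By the same computation the WT level of Elavl4 is also under it, so the fold changes of Elavl4 are not firm. The order is a description of 2 fold changes that share the WT animals and has no test.

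Il1rapl1 and Il1rapl2, family receptors of neurons on chromosome X, were measured near the lowest average, at 0.12 CPM and 0.054 CPM. Il1rapl1 was called higher in SM (3.58, implied SE 1.0) and in DM (3.02, implied SE 1.03) against WT in the authors' deposited tables, from a WT level of 0.0186 CPM that lies under the lowest average of 0.0514 CPM.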
